A study of Mus musculus with 4 samples.

Results

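The genes described here are Trp53, which encodes the transcription factor p53, and 9 genes around it: the p53 inhibitors Mdm2 and Mdm4 and the target genes Cdkn1a, Ccng1, Psrc1, Btg2, Sesn1, Zmat3 and Trp53inp1. They were taken by symbol from tables of 38921 gene rows, and each of the 10 symbols had 1 row. RNA came from fibroblasts cultured from the mouse pancreas in medium with serum, with 2 wild type libraries and 2 KPC libraries, every one of mixed strain; ages and further treatments are not given in the sources used here. KPC is the usual name of a pancreatic cancer model in which a mutant Trp53 allele stands behind a removable stop cassette and is switched on by Cre from the Pdx1 promoter, which is active in the epithelial lineage of the pancreas. A cell that never expressed Cre keeps the cassette, and the labels give neither the alleles nor the recombination state of the cultured cells.

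p53 is kept scarce in unstressed cells by Mdm2, the ubiquitin ligase that marks it for degradation, and Mdm2 is itself a p53 target gene, which closes a negative feedback loop. When DNA is damaged or growth signals are abnormal, p53 accumulates and activates genes that halt the cell cycle, repair DNA, adjust metabolism or start apoptosis. Fibroblasts are a classic cell type for the study of p53-dependent arrest, and several of these target genes are transcribed at a basal level in cultured cells.

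Levels are CPM, the counts per 1000000 counts of a library, after TMM scaling between libraries. Of the 10 genes, 8 stood below both wild type values in each KPC library, a pattern seen in 20.5% of the 23046 rows tested; 1 gene, Btg2, was higher in both (20.6% of rows), and Sesn1 overlapped between the groups. The genes that stood lower had KPC means between 36.8% (Psrc1) and 76.0% (Mdm4) of the wild type means. The median log2 fold change of the 10 genes was -0.67, beside -0.01 over all tested rows. None of the 10 passed edgeR's quasi-likelihood test after adjustment over all rows, with adjusted p from 0.279 (Psrc1) to 0.941 (Sesn1); the test called 0 rows higher and 0 lower (0% each). At an unadjusted edgeR p under 0.05 there were 6 of the 10 genes, all lower in KPC (Psrc1, Ccng1, Mdm2, Cdkn1a, Trp53 and Trp53inp1), where 3.94% of tested rows were lower and 4.73% higher at that level (8.67% either way). DESeq2 called 2 of them lower, Psrc1 and Ccng1 (1.28% of rows lower, 1.44% higher), and limma voom called 0. Without KPC replicate 1 the count at an unadjusted p under 0.05 was 2 (3.98% of rows) and without KPC replicate 2 it was 1 (5.33% of rows). Without wild type replicate 1 it was 4 (8.33% of rows); without wild type replicate 2 it was 7 (16.8% of rows), Btg2 being higher. None of the 10 was called after adjustment without wild type replicate 1, where edgeR called 0% of rows higher and 0.0209% lower, or without wild type replicate 2, where it called 1.79% higher and 1.69% lower.

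**Figure D1:**
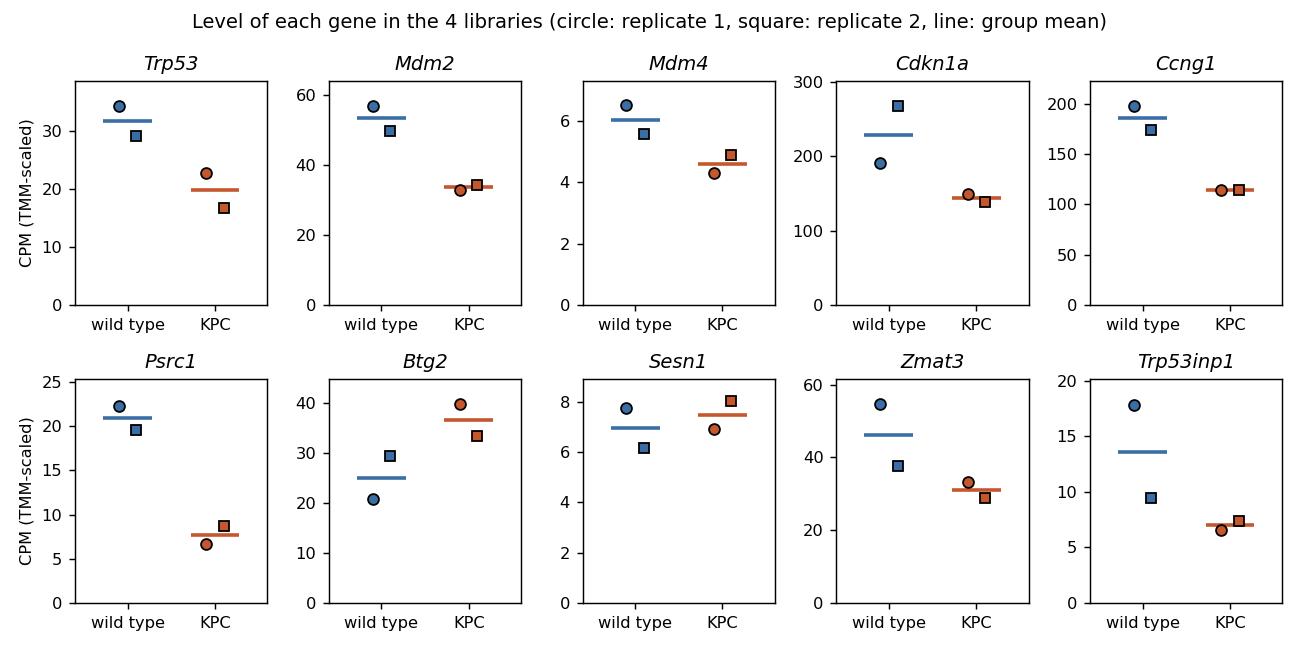
Level of each of the 10 genes in CPM (vertical axis, from 0) in the wild type and KPC libraries; circles are replicate 1, squares replicate 2 and lines the group means. In 8 panels both KPC points lie under both wild type points, in the Btg2 panel both lie above them, and in the Sesn1 panel they overlap.

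Trp53 lies on the plus strand of chromosome 11, 69580359 to 69591873 in the mm10 build, and its row overlapped no other row of the tables. Its level was 34.2 and 29.1 CPM in wild type 1 and 2, against 22.8 and 16.7 CPM in KPC 1 and 2. The KPC values were below both wild type values, and KPC 2, from the most deeply sequenced library, was the lowest. The means were 31.7 ± 3.61 and 19.8 ± 4.30 CPM (SD, n = 2 each), so the KPC mean was 62.5% of the wild type mean. The log2 fold change was -0.68 ± 0.23 (SE; edgeR adjusted p = 0.541), and 8.94% of tested rows had a lower one. The counts run over the whole gene interval and do not distinguish a mutant from a normal transcript. Trp53-ps, a short row on chromosome 17 named as a pseudogene of Trp53, held between 2.31% and 3.84% as many counts as Trp53 in the 4 libraries. Pdx1, whose promoter drives Cre in that model, had 0 and 3 counts in the wild type libraries and 4 and 177 in the KPC libraries, at most 2.61 CPM.

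Mdm2 (chromosome 10, 117688888 to 117710758, minus strand) encodes the ligase of the feedback loop. Its level was 57.1 and 49.9 CPM in wild type against 33.1 and 34.3 CPM in KPC. The KPC libraries lay close together, and their mean was 63.1% of the wild type mean, near the 62.5% of Trp53. The log2 fold change was -0.67 ± 0.17 (SE; edgeR adjusted p = 0.459). Counted within each library, where scaling between libraries plays no part, there were 1.67 and 1.71 Mdm2 counts for each Trp53 count in wild type and 1.45 and 2.05 in KPC. The KPC ratios lay on both sides of the wild type ratios, so no difference between the groups in Mdm2 relative to Trp53 could be seen with these libraries.

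Mdm4 (chromosome 1, 132989845 to 133025366, minus strand) encodes a relative of Mdm2 that binds p53 and restrains its activity. It was the lowest of the 3 core genes, at 6.51 and 5.55 CPM in wild type against 4.28 and 4.88 CPM in KPC. The groups did not overlap, and the log2 fold change was -0.40 ± 0.24 (SE; edgeR adjusted p = 0.688). Mdm2 outnumbered Mdm4 by 8.77 and 8.99 counts to 1 in wild type and by 7.74 and 7.02 to 1 in KPC, lower in both KPC libraries. A row named Mdm4-ps on the X chromosome held 280 and 73 counts in wild type and 198 and 225 in KPC, between 58.9% and 81.9% of the Mdm4 counts of the same library. Reads that match both could have been counted in each row, so the Mdm4 values are uncertain. The GENCODE M21 model of Mdm4 also extends beyond this row at both ends, from 132959484 to 133030561, so part of the gene was not counted.

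Among the arrest genes, Cdkn1a (chromosome 17, 29090979 to 29100722, plus strand) encodes p21, the inhibitor of cyclin-dependent kinases that carries out much of the p53 arrest. It stood at 191 and 267 CPM in wild type against 149 and 139 CPM in KPC. The wild type libraries were further apart than the KPC libraries, and both lay above them. The means were 229 ± 54.4 and 144 ± 6.89 CPM (SD, n = 2 each), with a log2 fold change of -0.67 ± 0.23 (SE; edgeR adjusted p = 0.541). Without wild type replicate 2, the higher of the wild type libraries, the log2 fold change was -0.40. There were 5.57 and 9.19 Cdkn1a counts for each Trp53 count in wild type and 6.53 and 8.32 in KPC, with the KPC ratios between the wild type ones. GENCODE M21 places another gene, AC167363.2, over part of this row on the opposite strand, and the counts carry no strand.

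Ccng1 (chromosome 11, 40748552 to 40755311, minus strand), which encodes cyclin G1, a p53 target that acts back on p53 through Mdm2, had the tightest KPC values of the 10 genes in absolute CPM. It stood at 198 and 174 CPM in wild type against at 114 CPM in each KPC library. The difference between the groups was larger than the spread within either, with a log2 fold change of -0.71 ± 0.17 (SE; edgeR adjusted p = 0.412). The DESeq2 adjusted p was 0.0295, the lowest over the alternatives, which reached 1 without KPC replicate 1.

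Promoter windows from RefSeq (GRCm38.p6, 250 bases before to 50 after each start site) were present for 8 of the 10 genes, 12 windows in all. They were searched for the p53 response element, taken as 2 adjoining 10-base copies of the p53 consensus with no spacer, at most 1 mismatch in the 20 bases, and the C at the fourth and the G at the seventh base of each copy kept. The consensus reads the same on both strands, so 1 search covered both. These settings were chosen after the Cdkn1a and Ccng1 windows had been seen. Such an element was found in 22 of 32851 windows (0.067%), and among the members in 1 window of Cdkn1a and in the window of Ccng1. Both stretches are shown because they were the member windows that held such an element. Capitals mark the element, and each stretch runs 5′ to 3′ along the strand of its gene.
Cdkn1a, chr17:29090908-29090967, plus strand: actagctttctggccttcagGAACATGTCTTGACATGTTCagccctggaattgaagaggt
Ccng1, chr11:40755442-40755501, minus strand: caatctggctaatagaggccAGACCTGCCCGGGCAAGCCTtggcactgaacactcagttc
The Cdkn1a element starts 51 bases before the upstream start site of the gene and 2841 bases before its other start site, and the Ccng1 element starts 195 bases before its start site. The windows of Trp53, Mdm2, Mdm4, Psrc1, Btg2 and Sesn1 and the other window of Cdkn1a held no such element. At least 1 10-base copy without mismatch was present in the windows of Trp53, Mdm2 and Ccng1 and in 1 window each of Cdkn1a and Sesn1 (8.36% of all windows). In Cdkn1a and Ccng1 such a copy is part of the element shown. Elements outside these windows or with a spacer were not searched. A match describes the sequence, and these data hold no measure of p53 binding.

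Psrc1 (chromosome 3, 108383839 to 108388231, plus strand), a microtubule-associated protein gene of the p53 response, had the lowest KPC level relative to wild type. It was at 22.3 and 19.6 CPM in wild type against 6.71 and 8.73 CPM in KPC. Each KPC library held less than any wild type library, and the means, 21 ± 1.91 and 7.72 ± 1.42 CPM (SD, n = 2 each), differed 2.72-fold. The log2 fold change was -1.44 ± 0.23 (SE), and 2.64% of tested rows had a lower one. The edgeR adjusted p was 0.279, the limma voom adjusted p 0.271 and the DESeq2 adjusted p 8.04e-05. The last was the lowest over the alternatives, which reached 1 without KPC replicate 1. With each library left out in turn its log2 fold change lay between -1.65 and -1.26.

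Btg2 (chromosome 1, 134075170 to 134079120, minus strand), an antiproliferative gene whose product works with the mRNA deadenylation machinery, ran the other way. It stood at 20.7 and 29.4 CPM in wild type against 39.8 and 33.4 CPM in KPC, higher in both KPC libraries. The log2 fold change was 0.55 ± 0.24 (SE; edgeR adjusted p = 0.611); it was 0.32 without wild type replicate 1 and 0.82 without wild type replicate 2. Within each library there were 0.109 and 0.110 Btg2 counts for each Cdkn1a count in wild type and 0.267 and 0.240 in KPC, a ratio chosen after the counts had been seen. The KPC ratios were above both wild type ratios, which were nearly equal although Cdkn1a and Btg2 each differed between the wild type libraries.

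Sesn1 (chromosome 10, 41810574 to 41908424, plus strand) encodes a sestrin, which restrains growth signalling through mTORC1 under stress. Its level was 7.76 and 6.17 CPM in wild type against 6.94 and 8.02 CPM in KPC. The groups overlapped, and the log2 fold change of 0.10 ± 0.24 (SE; edgeR adjusted p = 0.941) turned to -0.05 without wild type replicate 2 and to -0.01 without KPC replicate 2. Relative to Trp53 it was higher in KPC, with 0.227 and 0.212 Sesn1 counts for each Trp53 count in wild type and 0.304 and 0.479 in KPC. GENCODE M21 places another gene, 9930024M15Rik, over part of this row on the same strand. Covered bases were 5905 and 2664 in wild type and 5102 and 5699 in KPC, against 3343 exon bases of Sesn1. The Sesn1 counts may thus include other reads, and their part was not tested.

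Zmat3 (chromosome 3, 32334796 to 32365678, minus strand), which encodes a zinc finger protein that binds RNA, was at 54.7 and 37.5 CPM in wild type against 33.2 and 28.8 CPM in KPC. Wild type 1 was well above the other 3 libraries, and the gap between wild type 2 and KPC 1 was smaller than the gap within wild type. The log2 fold change of -0.57 ± 0.25 (SE; edgeR adjusted p = 0.602) was -0.27 without wild type replicate 1. Trp53inp1 (chromosome 4, 11156431 to 11174379, plus strand), whose product promotes p53 activity and autophagy, likewise stood highest in wild type 1. Its levels were 17.8 and 9.44 CPM in wild type against 6.58 and 7.37 CPM in KPC. Its log2 fold change was -0.97 ± 0.36 (SE; edgeR adjusted p = 0.566) with all 4 libraries, -0.43 without wild type replicate 1 and -1.35 without wild type replicate 2.

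**Figure D2:**
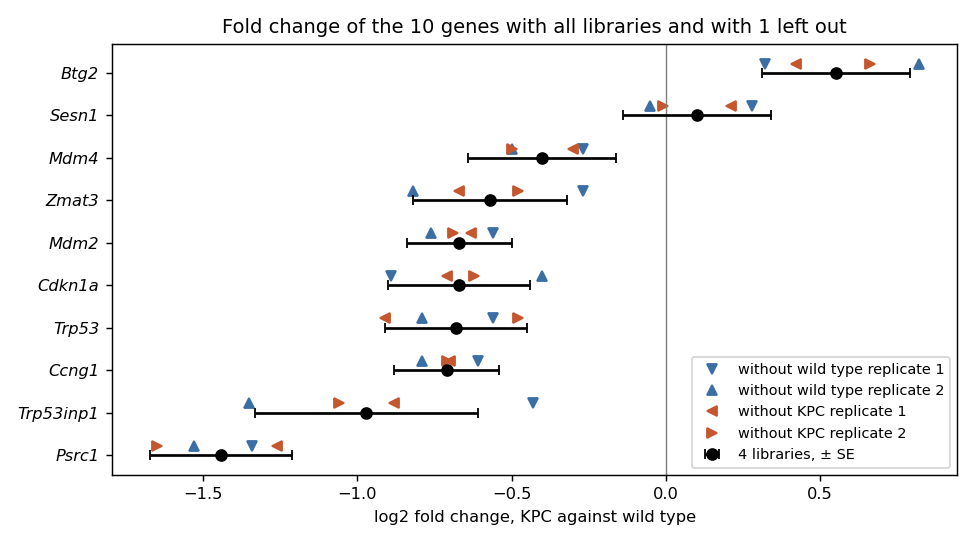
Log2 fold change of KPC against wild type (horizontal axis) for the 10 genes; black points are the fit with 4 libraries with its standard error, and triangles are the fits with 1 library left out. Trp53, Mdm2, Cdkn1a and Ccng1 lie between -0.67 and -0.71, Psrc1 and Trp53inp1 lie lowest, and the triangles of Sesn1 fall on both sides of 0.

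To compare levels between genes, CPM were divided by the exon bases that GENCODE M21 places inside each row. Cdkn1a and Ccng1 stood highest in wild type, at 64.6 ± 15.3 and 52.9 ± 4.76 CPM per kb of exon (SD, n = 2 each), and overlapped each other. Mdm2 (10.5), Btg2 (9.14) and Trp53 (7.83) came next, each overlapping its neighbour, followed by Psrc1 (6.24) and Zmat3 (4.15), which did not overlap each other. Trp53inp1 (2.11) and Sesn1 (2.08) overlapped, and Mdm4 was lowest at 0.877 ± 0.0988 CPM per kb of exon. In KPC the order differed in 3 places: Btg2 (13.3) stood above Mdm2 (6.65), Zmat3 (2.79) above Psrc1 (2.30) with overlapping values, and Sesn1 (2.24) above Trp53inp1 (1.08).

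**Figure D3:**
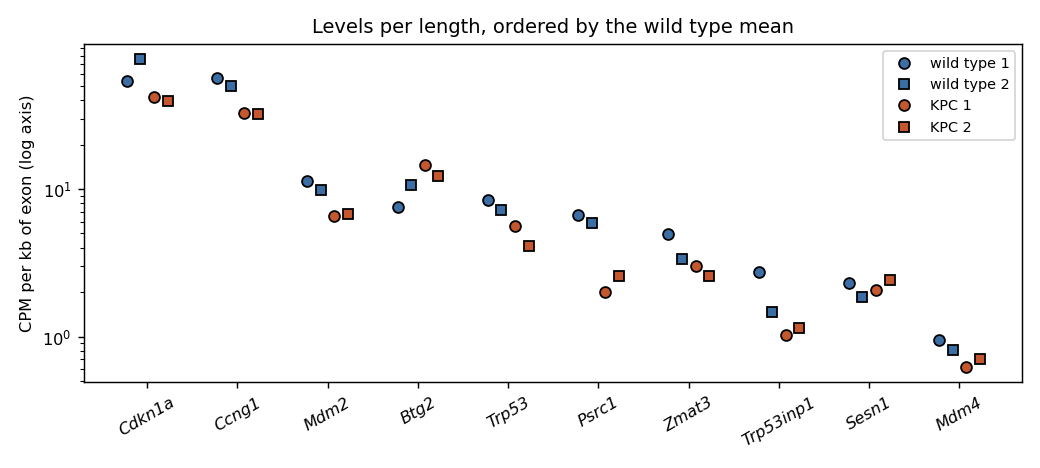
Level of each gene per kb of exon (vertical axis, log scale, CPM per kb) in the 4 libraries, ordered by the wild type mean; circles are replicate 1, squares replicate 2, blue wild type and orange KPC. Cdkn1a and Ccng1 lie highest and Mdm4 lowest in every library.

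Further p53 targets were counted in 2 lists, for which no test of a difference was made. Of 24 further targets of arrest, repair and metabolism, 24 were tested; 10 were lower in both KPC libraries (20.5% of all rows) and 2 higher (20.6%), with a median log2 fold change of -0.23. At an unadjusted edgeR p under 0.05 there were 4 lower (Dcxr, Ephx1, Phlda3 and Rps27l) and 1 higher (Btg1), and 0 passed over all rows. Over all tested rows 3.94% were lower and 4.73% higher at that level. Phlda3, an inhibitor of Akt signalling, stood at 157 and 190 CPM in wild type against 113 and 119 CPM in KPC. The reductase gene Dcxr was at 22.4 and 25.6 against 12.9 and 16.2 CPM. The ribosomal protein-like gene Rps27l, at 90.1 and 80.6 against 62.0 and 62.1 CPM, likewise did not overlap between the groups. Ephx1, an epoxide hydrolase gene, stood far higher in wild type 1 (105 CPM) than in wild type 2 (35.2), KPC 1 (18.6) or KPC 2 (21.5). The count of lower genes at an unadjusted p under 0.05 was 0 without KPC replicate 1 and 1 without KPC replicate 2, where 1.28% and 2.2% of all rows were lower at that level.

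Of the 16 apoptosis targets, all tested, 10 were lower in both KPC libraries (20.5% of rows) and 0 higher (20.6%), and the median log2 fold change was -0.44. At an unadjusted edgeR p under 0.05 there were 4 lower (Fas, Eda2r, Aen and Trp53i11) and 0 higher, 0 passed over all rows, and without KPC replicate 1 or KPC replicate 2 there were 2 lower (1.28% and 2.2% of all rows). With all 4 libraries, 3.94% of all tested rows were lower and 4.73% higher at that level. Of the 16, 4 had a log2 fold change above 0. The death receptor gene Fas stood at 17.6 and 18.9 CPM in wild type against 5.44 and 7.70 CPM in KPC, a log2 fold change of -1.47 ± 0.25 (SE; edgeR adjusted p = 0.300), close to that of Psrc1. Eda2r, another receptor gene of the same superfamily, was at 17.0 and 10.9 against 6.54 and 6.52 CPM. The nuclease gene Aen was at 99.9 and 98.3 against 52.6 and 67.6 CPM. Trp53i11 was at 8.18 and 4.65 against 2.41 and 2.92 CPM. In all 4 both KPC libraries lay below both wild type libraries.

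Of 23 regulators of p53 tested, 4 were higher in both KPC libraries (20.6% of rows) and 2 lower (20.5%), shares no larger than those of all rows. The median log2 fold change was 0.05, and 0 had an unadjusted edgeR p under 0.05 (8.67% of rows in either direction). Cdkn2a, whose alternative product p19Arf holds Mdm2 in check, stood at 38.5 and 15.4 CPM in wild type against 67.4 and 44.4 CPM in KPC, with a log2 fold change of 1.05 ± 0.49 (SE; edgeR adjusted p = 0.623). Its row counts both products together. The acetyltransferase gene Kat5 (12.3 and 12.7 against 19.4 and 14.7 CPM) and the kinase gene Hipk2 (6.47 and 7.69 against 10.5 and 8.70 CPM) were also higher in both KPC libraries. The damage-sensing kinase gene Atr (8.83 and 8.23 against 6.56 and 6.27 CPM) was lower in both.

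Of 15 relatives of the 10 genes by sequence, 3 were higher in both KPC libraries (20.6% of rows) and 4 lower (20.5%), shares near those of all rows. Their median log2 fold change was -0.04 (0.17 without wild type replicate 2). Of them 1, Btg1, had an unadjusted edgeR p under 0.05 (8.67% of rows in either direction). Btg1 stood at 50.0 and 34.2 CPM in wild type against 79.5 and 59.7 CPM in KPC, the direction of its relative Btg2. Cdkn1b, the p27 inhibitor gene related to Cdkn1a, stood at 14.4 and 11.0 against 18.1 and 18 CPM, the direction opposite to Cdkn1a. Zmat1 (2.45 and 1.65 against 1.22 and 1.40 CPM) and Zmat4 (3.98 and 5.05 against 3.13 and 3.30 CPM) were lower in both KPC libraries, as Zmat3 was. Zmat2, a further relative, was higher in both (43.5 and 51.9 against 60.0 and 56.2 CPM).

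Cell cycle genes linked to p21 were examined as the step below Cdkn1a. Not all of them are genes that p21 holds back. Rb1, Rbl1 and Lin9, for example, are not, and had log2 fold changes of 0.02, 0.17 and -0.0063. Of 24 tested, 5 were higher in both KPC libraries and 0 lower (20.6% and 20.5% of rows), and the median log2 fold change was 0.13. The cyclin gene Ccnb1, at 19.1 and 12.8 CPM in wild type against 28.3 and 24.1 CPM in KPC, was the 1 gene with an unadjusted edgeR p under 0.05 (log2 fold change 0.72 ± 0.26 SE, adjusted p = 0.560). Over all tested rows 4.73% were higher at that level and 3.94% lower. Mybl2 (9.34 and 10.6 against 11.3 and 16.3 CPM), E2f2 (1.81 and 0.671 against 2.23 and 2.52 CPM) and Mcm2 (15.5 and 13.0 against 17.6 and 17.5 CPM) followed by p and were higher in both KPC libraries. The median was 0.36 without wild type replicate 1 and -0.02 without KPC replicate 2, so its sign turned on single libraries. The count of higher genes at an unadjusted edgeR p under 0.05 moved whenever any single library was left out.

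**Figure D4:**
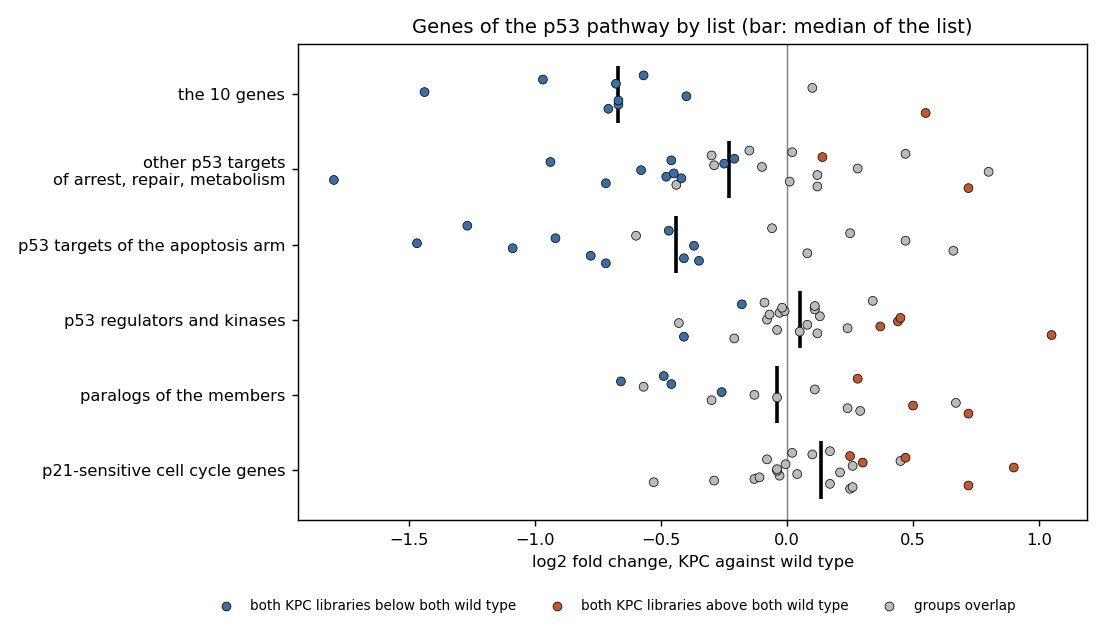
Log2 fold change of KPC against wild type (horizontal axis) for every tested gene of 6 lists; each point is a gene, coloured by whether the groups overlap, and bars are medians. The medians are -0.67 for the 10 genes, -0.44 for apoptosis targets and -0.23 for the other targets, and between -0.04 and 0.13 for the other 3 lists.

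The rows closest to Trp53 in their pattern over the 4 libraries were sought among 10430 rows with a mean of at least 5 CPM, by the Euclidean distance of log2 CPM centred on their mean. Skap1 (distance 0.144), Shisa4 (0.157) and Mapk13 (0.159) were nearest. Skap1, for example, stood at 13.6 and 11.6 CPM in wild type against 8.30 and 6.99 CPM in KPC. Of the members, Zmat3, Ccng1 and Mdm2 came closest to Trp53, at ranks 59, 61 and 104. The other members lay further away, from rank 751 (Mdm4) to rank 9144 (Btg2) of the 10430 rows. Among them, Trp53inp1, Sesn1 and Psrc1 were at ranks 2187, 6157 and 6564, so closeness to Trp53 was not shared by all members. The rows nearest to Cdkn1a were Pomgnt2 (0.0510), Cryab (0.0827) and Aga (0.0891), and the small heat shock protein gene Cryab stood at 177 and 244 CPM in wild type against 136 and 120 CPM in KPC. The member closest to Cdkn1a was Ccng1, at rank 460, and the furthest was Btg2, at rank 8711. These distances over 4 libraries are a description, with no test.

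The libraries differed in their cell type markers, in part along the comparison and in part within a group. Over log2 CPM, wild type 2 had a Pearson correlation of 0.9492 with wild type 1, 0.958 with KPC 1 and 0.9688 with KPC 2. Wild type 2 thus lay closer to both KPC libraries than to wild type 1. The KPC libraries correlated with each other at 0.9783. Counts summed to between 22302141 (wild type 2) and 68312367 (KPC 2), and every member had at least 124 counts in each library. The 12 fibroblast markers summed to between 14465 and 16560.4 CPM, most of it from Col1a1, Col1a2, Acta2 and Vim, while Lum stood between 0.171 and 7.34 CPM and Fap between 2.07 and 8.05 CPM. Of the 12, 3 were lower in both KPC libraries (20.5% of rows), Vim (log2 fold change -0.77), Pdgfrb (-0.80) and S100a4 (-1.96). Another 2 were higher in both (20.6% of rows), Col1a1 (0.19) and Thy1 (0.59). These markers were named after their values had been seen. All 12 macrophage markers were higher in both KPC libraries (20.6% of rows). Their summed levels were 77.4 and 247 CPM in wild type against 956 and 1900.6 CPM in KPC. Of them, Ptprc was at 0.875 and 1.21 against 3.89 and 7.65 CPM. The 10 epithelial markers summed to 31.9 and 433 CPM in wild type against 1185.5 and 445 CPM in KPC. Of them, 3 were higher in both KPC libraries (20.6% of rows). The 8 endothelial markers summed to 907 CPM in wild type 1 but no more than 151 CPM in any other library. Of them, 7 were lower in both KPC libraries (20.5% of rows). The 8 endocrine markers summed to 955 CPM in wild type 2 but no more than 3.92 CPM in any other library. The 8 acinar markers summed to at most 6.04 CPM and the 7 lymphocyte markers to at most 5.35 CPM, with Cd3e at no more than 2 counts in any library. The part of these cells in the differences of the 10 genes was not tested, and in RNA from whole cultures fewer cells that express a gene and less RNA per cell cannot be told apart.

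Read coverage along the genes differed too. In wild type 1 the covered part of the interval was the largest of the 4 libraries in 8 of the 10 genes, the exceptions being Ccng1 and Btg2, and in wild type 2, with the fewest counts, it was the smallest in 9. The libraries as a whole ran the same way. Covered bases summed over all rows were 69560279 and 41362112 in wild type 1 and 2, against 66101366 and 67554690 in KPC 1 and 2. For Mdm2, 39.9% and 17.2% of the interval were covered in wild type 1 and 2, against 23.7% and 29.8% in KPC 1 and 2. GENCODE M21 gives the gene 5070 exon bases. Wild type 1 covered more (8723 bases), as did KPC 2 (6524) and KPC 1 (5187), while wild type 2 covered fewer (3758). Bases outside annotated exons were therefore covered wherever the total exceeded 5070. Among the 10 genes, KPC 2 and wild type 1 each had 5 with more covered bases than exon bases. KPC 1 had 3 such genes and wild type 2 had 1. For Psrc1 the covered share of the interval was 76.0% in wild type 1 and between 46.1% and 51.9% in the others. Wild type 1 had fewer counts in all than either KPC library. The part of reads outside exons in the differences was not tested.

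**Figure D5:**
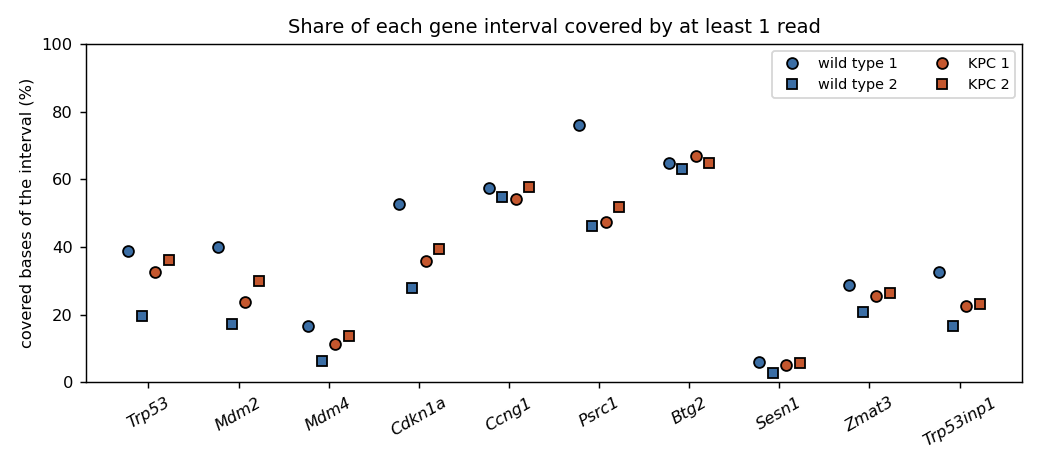
Share of each gene interval covered by at least 1 read (vertical axis, percent) for the 10 genes in the 4 libraries; circles are replicate 1, squares replicate 2, blue wild type and orange KPC. Wild type 1 lies highest in 8 genes, and for Ccng1 and Btg2 the 4 libraries lie close together.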

How the data were processed

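Single-end reads of poly-A RNA were obtained from 4 samples, according to the protocols in the labels. TopHat2 2.0.3, bedtools, SAMtools 0.1.18 and FastQC 0.10.1, with mm10/GRCm38, are listed without roles per the submitters' processing notes. The authors deposited, per library, a raw read count for each gene interval, with the covered bases and the covered fraction, and no strand. Handling of reads with several matches is not given in the sources used here.

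The deposited counts were fitted with edgeR 4.0.16 in R 4.3.3 (filterByExpr with a minimum count of 10, TMM, quasi-likelihood test, two-sided, Benjamini-Hochberg over 23046 rows at 0.05). The standard error is the log2 fold change over the root of F. DESeq2 1.42.0 and limma 3.58.1 (voom) were alternatives. The fits were tested on simulated data of 2 against 2 libraries. Of 2-fold changes edgeR recovered 4.98% and DESeq2 6.47%, and of 4-fold changes 65.7% and 67.2%. The changed rows were drawn from all 23046 rows at any level, with a spread taken from the trend over rows. These shares are therefore not those of the 10 genes themselves. The group means of every member but Psrc1 differed less than 2-fold, so the lack of a call says little about such differences. Of the 180 list entries, 5 were matched by RefSeq synonym. Members, lists and tests were chosen with earlier results of these data known. The text names the members, up to 4 genes of smallest p per pathway list, leading cell type markers, and 3 rows nearest in pattern to Trp53 and Cdkn1a. Zmat2 was added as a further relative of Zmat3. Libraries are labelled as biological replicates with no animal or culture named, so p-values measure the spread between libraries. Replicate numbers are not stated to pair libraries. Values of some genes that the naming rule covers are not reported here.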

Additional observations from a re-analysis of the deposited data

How the results depend on the processing

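Over 12 alternatives, 9 of the 10 genes kept the sign of their log2 fold change. The exception was Sesn1, which ran from -0.05 to 0.28 with a library left out. The count of genes lower in both KPC libraries was 8 under each scaling. DESeq2 called 333 rows higher and 294 lower, where edgeR called 0 and 0; with a library left out edgeR called between 0 and 429 higher and between 0 and 406 lower (both highest without wild type replicate 2; without wild type replicate 1 it called 5 lower), and none of the 10 genes. The number of the 10 genes with an unadjusted p under 0.05 ran from 1 to 7 with a library left out (2 without KPC replicate 1, 1 without KPC replicate 2), and the median log2 fold change from -0.77 to -0.49 (-0.49 without wild type replicate 1). With upper quartile factors 917 rows were higher and 1087 lower at an unadjusted p under 0.05, against 1090 and 909 with TMM. With the replicate number as a block, 5 of the 10 genes had an unadjusted p under 0.05, the median was -0.65, and 0 rows were called; differences between the replicates of each group correlated at 0.136 over rows, and only the number is shared. The block changed no call. Fits with a library left out assume that the lone library varies like the other group. Of all the alternatives, DESeq2 alone called any of the 10 genes (Ccng1 and Psrc1). Every one of the 10 genes had at least 124 counts in each library.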
